A study of Homo sapiens with 18 samples.

Results

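The genes described here encode 10 enzymes of protein glycosylation, the attachment and trimming of sugar chains, and were grouped as androgen-regulated. They are ST6GALNAC1, GCNT1, UAP1, GALNT7, PGM3, CSGALNACT1, EDEM3, GNPNAT1, OGT and MAN1A1. A transcript cluster, the group of probes with which the array reads 1 gene, counted as a member where its platform annotation named one of these genes. Of the 10 genes, 8 had a cluster, and 9 of the 33297 clusters on the array belonged to them. GCNT1, which makes branched O-glycans, and PGM3, a phosphomutase in the synthesis of UDP-N-acetylglucosamine, were not matched to a cluster and were not analysed here. ST6GALNAC1 was read by 2 clusters with nearly the same R1881 response in siControl LNCaP cells (log2 3.09 and 3.05), and the one with the higher mean signal was used. The 8 genes are 8 of 19429 annotation entries, and 0 of them were lost to the filter on low signals.

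Glycans are built from activated sugars. GNPNAT1, PGM3 and UAP1 act in turn in the hexosamine pathway, which makes UDP-N-acetylglucosamine, the sugar donor for N-glycans, for glycosaminoglycans and for OGT, the enzyme that puts single N-acetylglucosamine residues on nuclear and cytosolic proteins. GALNT7 and other GALNT enzymes attach N-acetylgalactosamine to serine or threonine, where mucin-type O-glycans begin, and ST6GALNAC1 adds sialic acid to that sugar, giving the sialyl-Tn antigen. CSGALNACT1 adds the sugar that commits a linker to chondroitin sulfate. MAN1A1 trims mannose from N-glycans in the Golgi, and EDEM3 trims mannose in the endoplasmic reticulum on glycoproteins marked for degradation. In prostate cells the androgen receptor, a nuclear receptor switched on by androgen, controls secretory genes such as KLK3, which encodes prostate-specific antigen.

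The study measured total RNA of LNCaP and VCaP, established human prostate cancer lines that respond to androgen, on 18 gene-level arrays in 12 groups of line, siRNA and treatment. Cells received siControl, siCTBP1-AS (against CTBP1-AS, a transcript antisense to CTBP1) or siPSF (against PSF, an RNA-binding protein encoded by SFPQ). After 48 h they were given vehicle (ethanol) or R1881, a synthetic androgen. The serum before hormone was stripped of steroids with charcoal and made up 2.5% of the LNCaP medium and 5% of the VCaP medium. In LNCaP, set 1 compared siCTBP1-AS with siControl under 10 nM R1881, set 2 compared siCTBP1-AS#2 with siControl#2 under 1 nM, and set 3 compared siPSF with siControl under 10 nM. In VCaP, 1 set compared both siCTBP1-AS#2 and siPSF with siControl under 1 nM. Each set had 1 array for each siRNA and treatment, so there are 9 pairs of vehicle and R1881 arrays, 6 in LNCaP and 3 in VCaP. No label says how far the arrays are independent cultures. In the tests by line, pairs with different siRNAs serve as replicates. For each gene that fit has 1 spread over all 9 pairs of both lines. The spread behind the p-values of either line, VCaP included, so takes in the siRNAs and the LNCaP doses. That of the siControl test in LNCaP takes in the doses. The 3 VCaP pairs come from 1 set, each with another siRNA. Whether the p-values would hold for new cultures is not known. In such bulk samples, fewer cells and less RNA per cell cannot be told apart.

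Signals are log2 values, and only differences within a set were used, because the median signal of the 4 sets lay between 5.73 and 6.79. Across all clusters the arrays of a set correlated at 0.98 to 0.992, and their number limits the precision. Markers of luminal prostate cells fitted the labelled cell type, with KRT8 at 11.34 to 13.42 and HOXB13 at 9.81 to 11.16 in LNCaP. KLK3 rose with R1881 by 1.54 in LNCaP (limma adjusted p = 0.000611) and 2.09 in VCaP (adjusted p = 0.000565). ERG, which VCaP overexpresses through a gene fusion, was at 9.01 to 12.11 in VCaP and 3.91 to 5.03 in LNCaP. Of 16 measured markers of basal, fibroblast, leukocyte and endothelial cells, 6 passed the filter, and 0 of these passed the test for R1881 in either line. Not all were low: in LNCaP the leukocyte marker CD68 was at 7.56 to 10.65 (percentile 53.4 to 94.6 of all entries). The fibroblast marker COL1A1 was at 6.70 to 8.10 there (percentile 52.2 to 64.1). With siCTBP1-AS CD68 was higher by 0.75 without passing (limma adjusted p = 0.0872). The source of these signals was not tested. The fibroblast list had a mean log2 signal of 5.98 to 6.29 on the VCaP vehicle arrays and 5.21 to 5.60 on the VCaP R1881 arrays, since LUM (lumican) went from 9.74 to 4.86 with siControl. Its part in the VCaP results was not tested. SFPQ was lower with siPSF on 4 of 4 arrays, with differences of -1.55 to -0.69 (fit -1.18, SE 0.14, limma adjusted p = 0.000802). CTBP1-AS was not analysed here, so no value checks siCTBP1-AS.

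The stretches upstream of the start sites are shown for UAP1, EDEM3 and MAN1A1. With R1881, UAP1 rose by a like amount in all 9 pairs, EDEM3 rose in LNCaP, and MAN1A1 fell in both lines. RefSeq windows (GRCh38.p14, 250 bases before to 50 after a start site) were matched for 6 of the 8 genes, 8 windows in all. Printed are the 250 bases before the start, 5′ to 3′ on the gene's strand, with capitals for CCAAT or its reverse complement ATTGG, the CCAAT box of many promoters. The UAP1 stretch is chr1:162561281-162561530 on the plus strand, that of EDEM3 chr1:184754859-184755108 on the minus strand and that of MAN1A1 chr6:119349762-119350011 on the minus strand.
UAP1: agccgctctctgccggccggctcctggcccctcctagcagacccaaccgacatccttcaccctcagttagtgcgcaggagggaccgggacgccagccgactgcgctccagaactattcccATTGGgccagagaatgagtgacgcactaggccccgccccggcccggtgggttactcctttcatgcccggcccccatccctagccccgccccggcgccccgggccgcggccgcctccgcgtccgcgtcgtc
EDEM3: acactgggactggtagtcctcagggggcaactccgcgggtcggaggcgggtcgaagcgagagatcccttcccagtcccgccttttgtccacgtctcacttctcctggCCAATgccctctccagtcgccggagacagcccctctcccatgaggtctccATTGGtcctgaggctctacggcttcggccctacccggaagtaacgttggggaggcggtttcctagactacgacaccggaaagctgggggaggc
MAN1A1: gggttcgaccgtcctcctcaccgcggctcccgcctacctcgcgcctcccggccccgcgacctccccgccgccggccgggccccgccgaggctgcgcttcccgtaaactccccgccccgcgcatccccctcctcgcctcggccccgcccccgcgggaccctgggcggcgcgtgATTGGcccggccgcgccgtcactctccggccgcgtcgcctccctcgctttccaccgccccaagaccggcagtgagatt
The CCAAT box began 130 bases before the start site in the UAP1 window shown, 143 and 93 in EDEM3 and 78 in MAN1A1. UAP1 had 3 of the 8 windows, each overlapping the next, and the other two UAP1 windows had 0 CCAAT boxes. In all, the box was in 4 of the 8 windows, against 34.6% of all 35116 windows. AGAACA, a hexamer found in androgen response elements, was in 0 of the 8 windows and in 14.8% of all, and the TATA box TATAAA in 0 of 8 and 11.5%, with both strands searched for each motif and no motif contained in another. These counts say only which letters lie in these short windows. The 8 windows were rich in CpG, with 23 to 48 per window against a median of 14 over all windows.

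With R1881, 6 enzymes had a higher signal in 9 of 9 pairs (GNPNAT1, UAP1, GALNT7, ST6GALNAC1, CSGALNACT1 and EDEM3), and OGT and MAN1A1 had a lower signal in 9 of 9. With siControl alone in LNCaP (3 pairs), 5 of the 8 passed the test: ST6GALNAC1, CSGALNACT1, EDEM3 and UAP1 rose and MAN1A1 fell. Over all 6 LNCaP pairs, 6 rose and 2 fell. In VCaP, 3 rose and 2 fell. Of all 14571 entries tested, 5.02% passed with siControl in LNCaP (2.74% higher, 2.29% lower), 18.4% over the 6 LNCaP pairs (9.27% higher, 9.11% lower) and 29.5% over the 3 VCaP pairs (13.9% higher, 15.7% lower). The genes were grouped as androgen-regulated, so nothing is read from the difference between their count and these shares. How many of all entries had the same direction in 9 of 9 pairs was not counted. Tests were made with limma, with the array set or the pair as a block and Benjamini-Hochberg adjustment at 0.05 over all entries. Both LNCaP tests pool sets given 1 and 10 nM R1881, and all VCaP pairs had 1 nM. Without the block, which adds the level differences between sets to the spread, ST6GALNAC1, CSGALNACT1 and MAN1A1 still passed in LNCaP in both tests, and UAP1 (adjusted p = 1 with siControl, 0.169 over 6 pairs) and EDEM3 (1 and 0.0732) did not. Over the 6 pairs GALNT7 (0.0664), GNPNAT1 (1) and OGT (1) did not pass either, and in VCaP CSGALNACT1 alone did (0.0175).

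**Figure D1:**
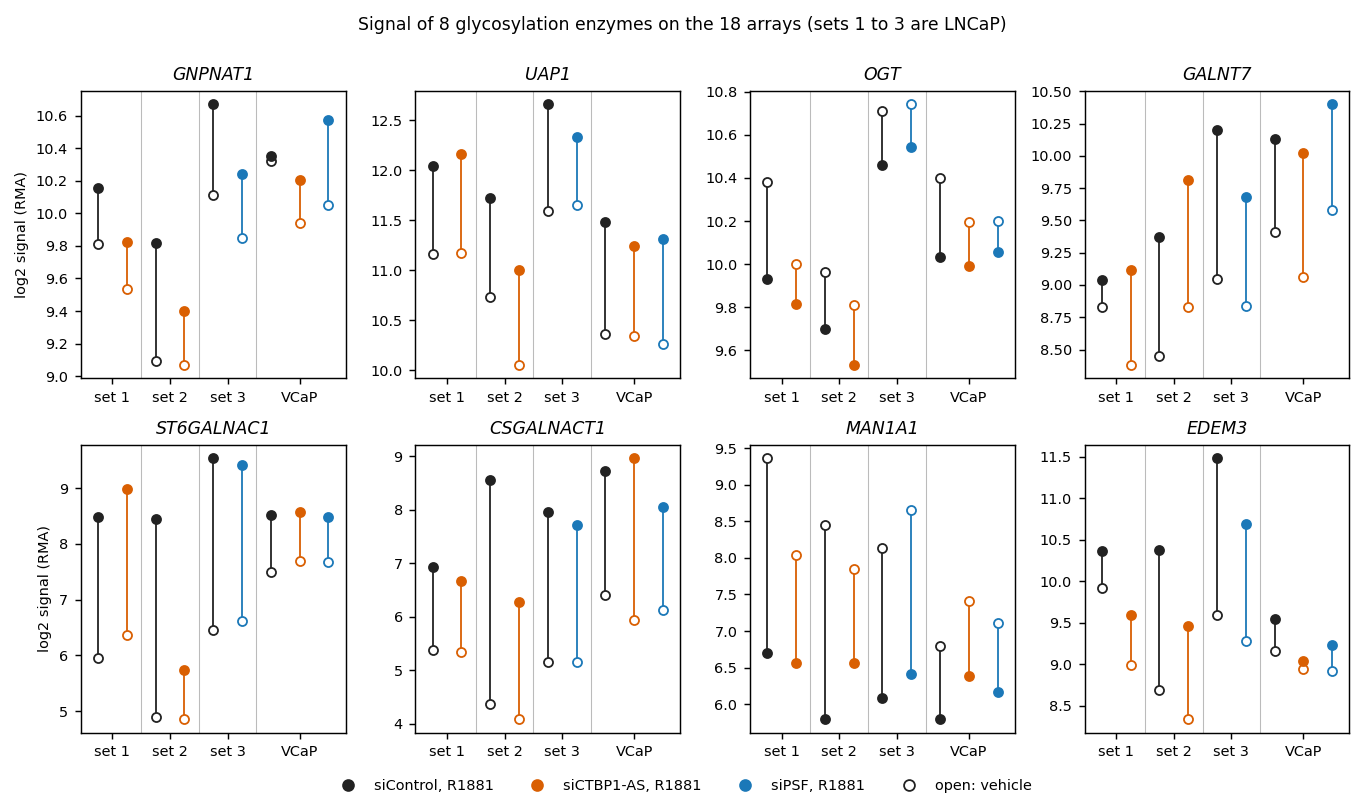
Log2 signal of each enzyme on the 18 arrays, with 1 vertical line per pair from the vehicle array (open circle) to the R1881 array (filled circle), coloured by siRNA and grouped by set. The filled circle lies above the open one in 9 of 9 pairs for 6 genes and below it in 9 of 9 for OGT and MAN1A1; each panel has its own scale, and heights compare only within a set.

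In the hexosamine pathway, UAP1 (UDP-N-acetylglucosamine pyrophosphorylase), which makes the finished sugar nucleotide, rose by 0.68 to 1.12 log2 units in all 9 pairs. With siControl its signal went from 11.16 with vehicle to 12.04 with R1881 in set 1, from 10.73 to 11.73 in set 2, from 11.59 to 12.66 in set 3 and from 10.36 to 11.48 in VCaP. With siCTBP1-AS it went from 11.17 to 12.16 in set 1, from 10.05 to 11.00 in set 2 and from 10.34 to 11.24 in VCaP, and with siPSF from 11.65 to 12.33 in set 3 and from 10.26 to 11.31 in VCaP. Within every set each R1881 array was above each vehicle array. The rise was 0.98 ± 0.09 log2 units with siControl in LNCaP (SD, n = 3), 0.93 ± 0.14 over all LNCaP pairs (SD, n = 6) and 1.03 ± 0.11 in VCaP (SD, n = 3). That is 1.98-fold, 1.90-fold and 2.04-fold, with limma adjusted p = 0.00542, 3.45e-06 and 1.54e-05.

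GNPNAT1, the acetyltransferase upstream of UAP1 in the pathway, had a smaller response. Its siControl signal went from 9.81 to 10.15 in set 1, from 9.10 to 9.82 in set 2, from 10.12 to 10.67 in set 3 and from 10.32 to 10.35 in VCaP. The difference was 0.29 to 0.72 over the 6 LNCaP pairs and 0.03 to 0.52 over the 3 VCaP pairs, so the pairs of the lines overlapped. GNPNAT1 rose over the 6 LNCaP pairs (log2 0.44, SE 0.08, adjusted p = 0.00229). It did not pass with siControl in LNCaP alone (0.54, SE 0.12, adjusted p = 0.054) or in VCaP (0.27, SE 0.11, adjusted p = 0.0811).

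OGT, which spends the product of this pathway, was slightly lower with R1881. Its siControl signal went from 10.38 to 9.93 in set 1, from 9.96 to 9.70 in set 2, from 10.71 to 10.46 in set 3 and from 10.40 to 10.03 in VCaP. OGT fell by 0.27 over the 6 LNCaP pairs (SE 0.06, limma adjusted p = 0.00626) and by 0.24 over the 3 VCaP pairs (SE 0.08, adjusted p = 0.0427). The VCaP call was lost when any 1 of its 3 pairs was left out (adjusted p = 0.0617 to 0.258), and the siControl LNCaP test gave adjusted p = 0.155. OGA, which removes the residue that OGT adds, was at log2 -0.23 in LNCaP and -0.30 in VCaP, and neither passed (adjusted p = 0.0595 and 0.062).

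Among the O-glycan enzymes, GALNT7, a transferase that prefers peptides already carrying N-acetylgalactosamine, rose in both lines. With siControl it went from 8.83 to 9.04 in set 1, from 8.45 to 9.37 in set 2, from 9.04 to 10.20 in set 3 and from 9.41 to 10.13 in VCaP. The set 1 siControl pair, at 0.21, was the lowest of the 9 pairs, and the others lay between 0.72 and 1.15. GALNT7 rose by 0.81 log2 units in LNCaP over all pairs (SE 0.10, limma adjusted p = 0.000252) and 0.84 in VCaP (SE 0.14, adjusted p = 0.00128). The siControl test in LNCaP did not pass (0.76, SE 0.19, adjusted p = 0.0772), and did so without the set 1 pair (1.04, adjusted p = 0.0042).

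ST6GALNAC1, the sialyl-Tn synthase, rose by more than 2 log2 units on average in LNCaP. With siControl its signal went from 5.96 to 8.49 in set 1, from 4.90 to 8.44 in set 2, from 6.45 to 9.54 in set 3 and from 7.50 to 8.52 in VCaP. With siCTBP1-AS it went from 6.36 to 8.98 in set 1, from 4.85 to 5.73 in set 2 and from 7.68 to 8.58 in VCaP, and with siPSF from 6.62 to 9.42 in set 3 and from 7.67 to 8.48 in VCaP. In 5 LNCaP pairs the difference was 2.53 to 3.54. The sixth, set 2 with siCTBP1-AS, had 0.88, within the 0.81 to 1.02 of the 3 VCaP pairs. The rise with siControl in LNCaP was 8.31-fold (log2 3.05, SE 0.19, limma adjusted p = 0.00105), and over the 6 pairs 5.96-fold (2.58, SE 0.25, adjusted p = 4.79e-05). In VCaP the mean difference was 0.91 (SE 0.35, adjusted p = 0.0742) and did not pass, although its 3 pairs had an SD of 0.11. That SE takes its spread from all 9 pairs, LNCaP included.

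CSGALNACT1, which starts chondroitin sulfate chains, rose by more than 2 log2 units on average in both lines. With siControl its signal went from 5.38 to 6.92 in set 1, from 4.38 to 8.56 in set 2, from 5.15 to 7.95 in set 3 and from 6.41 to 8.72 in VCaP. With siCTBP1-AS it went from 5.35 to 6.66 in set 1, from 4.08 to 6.28 in set 2 and from 5.93 to 8.97 in VCaP, and with siPSF from 5.16 to 7.71 in set 3 and from 6.13 to 8.05 in VCaP. The LNCaP pairs spread widely, from 1.31 to 4.18, and the VCaP pairs, from 1.92 to 3.04, lay inside that range. The mean rise was 2.43 over the LNCaP pairs (SE 0.30, limma adjusted p = 0.000237) and 2.42 in VCaP (SE 0.42, adjusted p = 0.00147), or 5.39-fold and 5.36-fold. The LNCaP vehicle signals were low, from 4.08 to 5.38, and the lowest array of each LNCaP set had CSGALNACT1 at percentile 18.1 to 20.2 of all entries (35.2 in VCaP). The gene passed the filter on its mean over all arrays, and no detection call was used, so the LNCaP folds start from signals that may be at background and may understate the change. With siControl in LNCaP the rise was 2.84 (SE 0.43, adjusted p = 0.0196), and this call was lost without set 2 (2.17, adjusted p = 0.0526) or without set 3 (2.86, adjusted p = 0.0524).

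On the N-glycan side MAN1A1 and EDEM3 both encode mannosidases but responded in opposite directions. MAN1A1 had the largest fall. With siControl its signal went from 9.37 to 6.70 in set 1, from 8.45 to 5.79 in set 2, from 8.14 to 6.08 in set 3 and from 6.80 to 5.80 in VCaP. With siCTBP1-AS it went from 8.04 to 6.56 in set 1, from 7.85 to 6.56 in set 2 and from 7.41 to 6.38 in VCaP, and with siPSF from 8.66 to 6.41 in set 3 and from 7.11 to 6.17 in VCaP. In every set each R1881 array was below each vehicle array. MAN1A1 fell 5.51-fold with siControl in LNCaP (log2 -2.46, SE 0.15, limma adjusted p = 0.00105), 4.19-fold over the 6 pairs (-2.07, SE 0.16, adjusted p = 1.15e-05) and 1.99-fold in VCaP (-0.99, SE 0.23, adjusted p = 0.00768). The VCaP call was lost without its siControl pair (-0.99, adjusted p = 0.0517). The 3 VCaP pairs had an SD of 0.05, and the SE of 0.23 takes its spread from all 9 pairs.

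EDEM3 had its large responses in LNCaP sets 2 and 3. With siControl it went from 9.92 to 10.36 in set 1, from 8.69 to 10.38 in set 2, from 9.59 to 11.48 in set 3 and from 9.15 to 9.54 in VCaP. With siCTBP1-AS it went from 8.99 to 9.59 in set 1, from 8.33 to 9.46 in set 2 and from 8.95 to 9.04 in VCaP, and with siPSF from 9.28 to 10.69 in set 3 and from 8.91 to 9.23 in VCaP. The set 1 pairs had 0.44 and 0.60, the other 4 LNCaP pairs 1.12 to 1.90 and the VCaP pairs 0.09 to 0.38. EDEM3 rose in LNCaP over all pairs (1.19, SE 0.17, limma adjusted p = 0.00054). With siControl alone the rise of 1.34 (SE 0.27, adjusted p = 0.0449) passed narrowly, and the call was lost without set 2 (adjusted p = 0.268), without set 3 (0.14) or with a robust variance model (0.0578). In VCaP it did not pass (0.27, SE 0.24, adjusted p = 0.441), although its 3 pairs had an SD of 0.15. That SE takes its spread from all 9 pairs, LNCaP included.

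**Figure D2:**
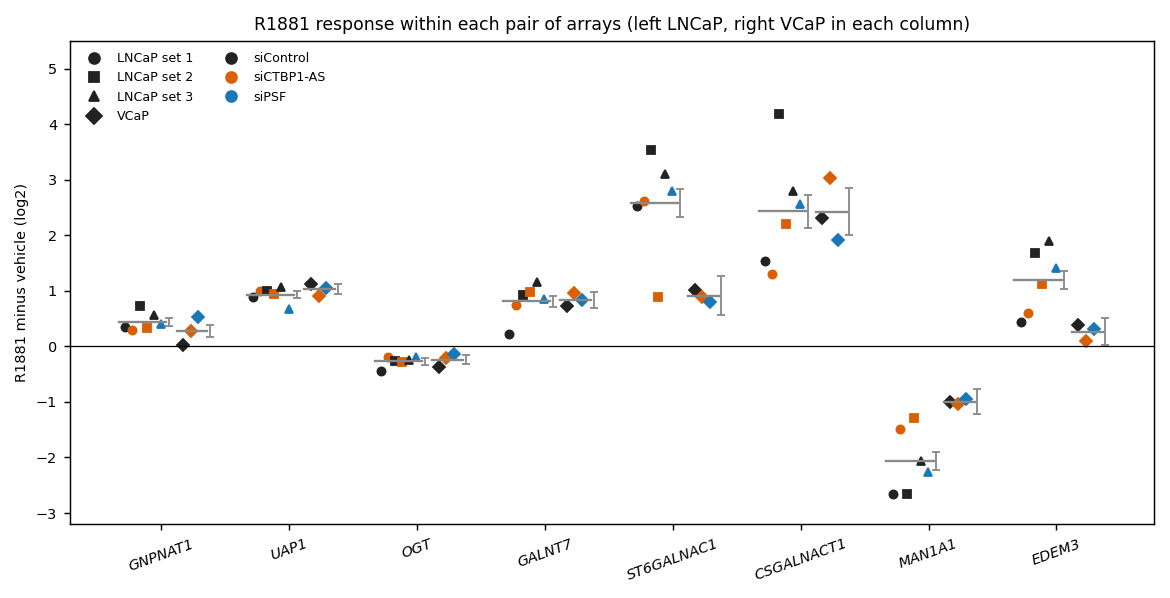
R1881 minus vehicle in log2 units for each of the 9 pairs, by gene, with marker shape for the set and colour for the siRNA; grey lines are the means of the 6 LNCaP and 3 VCaP pairs and bars are 1 standard error of the fit. UAP1 pairs sit between 0.68 and 1.12 in both lines, whereas ST6GALNAC1 pairs of LNCaP spread from 0.88 to 3.54.

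The response was then compared between the lines. ST6GALNAC1 rose less in VCaP than in LNCaP (difference log2 -1.67, SE 0.43, limma adjusted p = 0.0307), and MAN1A1 fell less (difference 1.07, SE 0.28, adjusted p = 0.0334). Of all entries, 11.1% passed this test of the difference (5.09% higher, 6.05% lower), and 2 of the 8 enzymes did. EDEM3 had a smaller rise in VCaP that did not pass (difference -0.93, SE 0.29, adjusted p = 0.0608), and did pass without set 1 (-1.26, adjusted p = 0.00375). The other 5 did not pass, with adjusted p = 0.477 to 0.997. The difference was 0.10 for UAP1 (SE 0.11), 0.03 for GALNT7 (SE 0.17), 0.03 for OGT (SE 0.10), -0.17 for GNPNAT1 (SE 0.13) and -0.01 for CSGALNACT1 (SE 0.52). With its low LNCaP vehicle signals, the value for CSGALNACT1 does not show equal responses. The 2 called differences also involve low signals. The lowest ST6GALNAC1 array was at percentile 29.2 to 36.4 of all entries in the LNCaP sets and 56.1 in VCaP. For MAN1A1 the highest array was at percentile 68 to 83.1 in the LNCaP sets and 56.2 in VCaP. Its lowest was at 31.8 to 42 and 33.8, so the fall in VCaP had less room. The part of background signal in these differences was not tested.

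The line comparison rests on few pairs and is mixed with dose. VCaP received 1 nM R1881, and the LNCaP set with the same dose was set 2, where ST6GALNAC1 with siControl changed by 3.54 against 1.02 in VCaP and MAN1A1 by -2.66 against -1.003, with 1 pair of arrays each. Leaving out LNCaP set 1 or set 3 ended the ST6GALNAC1 call (adjusted p = 0.082 and 0.0819), and leaving out set 3 ended that of MAN1A1 (0.0796). Without the set 2 siCTBP1-AS pair, left out after its values were seen, the ST6GALNAC1 difference was -2.01 (SE 0.21, adjusted p = 0.000367) and that of MAN1A1 1.23 (adjusted p = 0.0111). Without the pair as a block, neither passed (adjusted p = 1 for both).

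Differences on single arrays were taken as knockdown minus siControl in the same set and treatment. The fits have a common R1881 term for each line, not for each set, so fitted effects need not equal the means of these differences. No enzyme passed the test for siCTBP1-AS, where 0.508% of all entries did, or for siPSF, where 1.37% did. EDEM3 came nearest with siCTBP1-AS. It was lower than siControl on 6 of 6 arrays, with differences of -0.93 under vehicle and -0.77 under R1881 in set 1, -0.36 and -0.92 in set 2 and -0.21 and -0.50 in VCaP, and the fit gave log2 -0.63 (SE 0.16, limma adjusted p = 0.0736). GNPNAT1 was also lower on 6 of 6 arrays (-0.42 to -0.03, fit -0.29, SE 0.08, adjusted p = 0.102), as was OGT (-0.38 to -0.04, fit -0.16, SE 0.06, adjusted p = 0.192). With siPSF, EDEM3 was lower on 4 of 4 arrays (-0.79 to -0.24, fit -0.47, SE 0.19, adjusted p = 0.293) and MAN1A1 higher on 4 of 4 (0.31 to 0.53, mean 0.38). The fit, which shares its terms with the sets that hold no siPSF, gave 0.21 for MAN1A1 (SE 0.24, adjusted p = 0.783), and 0.38 from the sets with siPSF alone (adjusted p = 0.18) and 0.03 without set 3 (adjusted p = 0.99). The 2 VCaP knockdowns share their siControl arrays. How many of all entries had the same direction on every array of a knockdown was not counted, so nothing is read from these array counts. Of all 14571 entries, 2691 had an unadjusted limma p under 0.05 for siCTBP1-AS and 1933 for siPSF.

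Set 2 held the largest departures under siCTBP1-AS. On its R1881 array ST6GALNAC1 was at 5.73 against 8.44 with siControl, and CSGALNACT1 at 6.28 against 8.56, whereas on the vehicle arrays the differences from siControl were -0.05 and -0.30. UAP1 was lower there with both treatments (-0.69 and -0.73). For these genes the other siCTBP1-AS arrays had smaller differences under R1881. In set 1 and VCaP ST6GALNAC1 was 0.06 to 0.49 above siControl on 4 of 4 arrays, and UAP1 differed by -0.24 to 0.12. CSGALNACT1 differed under R1881 by -0.26 in set 1 and 0.25 in VCaP, and under vehicle by -0.03 and -0.48. These sets are not plain repeats. Set 1 held siCTBP1-AS under 10 nM R1881, and set 2 and VCaP held siCTBP1-AS#2 under 1 nM. The siCTBP1-AS tests pool them, and what the #2 stands for is not given. MAN1A1 with siCTBP1-AS under vehicle was lower in set 1 (-1.33) and set 2 (-0.61) and higher in VCaP (0.61), so the sets disagreed in direction.

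**Figure D3:**
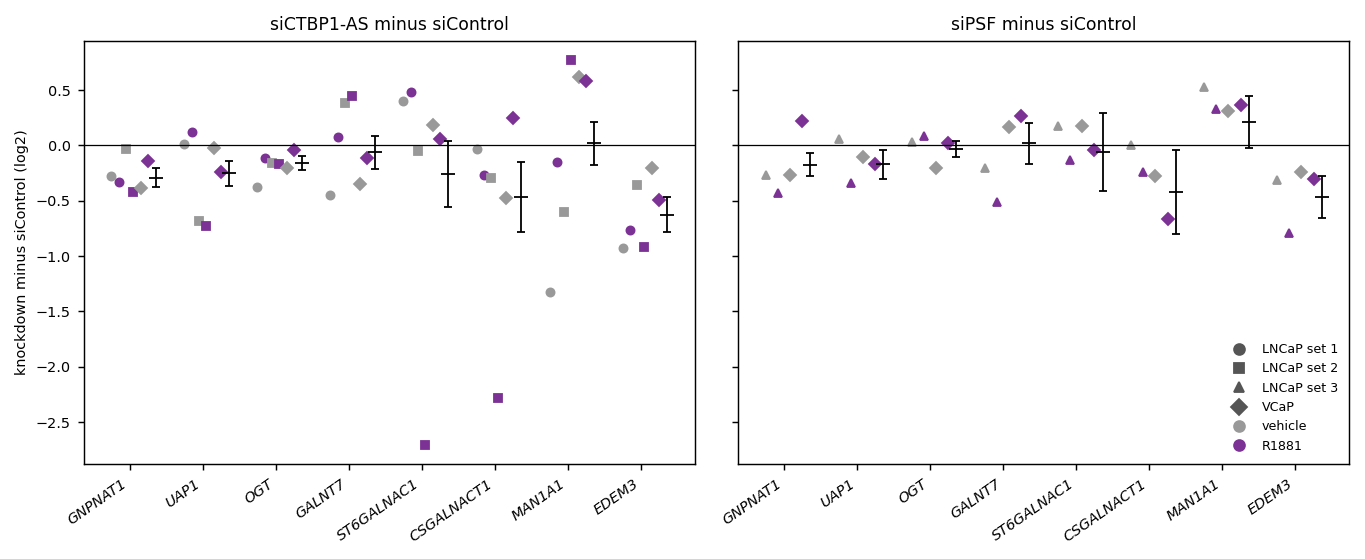
Knockdown minus siControl in log2 units for each array of siCTBP1-AS (left) and siPSF (right), by gene, with shape for the set, grey for vehicle and purple for R1881; black bars are the fitted effect and 1 standard error. EDEM3 lies below 0 on 6 of 6 siCTBP1-AS and 4 of 4 siPSF arrays, and the set 2 R1881 array stands at -2.70 for ST6GALNAC1 and -2.28 for CSGALNACT1. None of the fitted effects passed the test.

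Whether a knockdown altered the androgen response was tested as the product of siRNA and R1881. By limma 0 of 14571 entries passed for either siRNA, with 514 at an unadjusted p under 0.05 for siCTBP1-AS and 283 for siPSF, so all 8 enzymes had adjusted p = 0.996 and 1. Within set 1 and set 2, MAN1A1 fell less with siCTBP1-AS than with siControl (-1.49 against -2.66 and -1.28 against -2.66), and in VCaP the values were -1.04 and -1.003. The fitted change was 0.74 for MAN1A1 (SE 0.38), -0.95 for ST6GALNAC1 (SE 0.57) and -0.53 for CSGALNACT1 (SE 0.61). With siPSF the fitted changes of the 8 lay between -0.49 (CSGALNACT1, SE 0.71) and 0.24 (MAN1A1, SE 0.44).

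Other genes of glycan synthesis were taken from 7 lists with 173 symbols, none of them among the 10, of which 149 entries were tested. With siControl in LNCaP 4 rose and 5 fell (6.04%), over the 6 LNCaP pairs 24 rose and 10 fell (22.8%), and in VCaP 34 rose and 19 fell (35.6%), near the 5.02%, 18.4% and 29.5% of all entries. The median response of these entries was 0.04 in LNCaP and 0.09 in VCaP, against -0.01 and 0.01 for all entries, and 0.87 and 0.55 for the 8 enzymes. As the 8 enzymes were grouped as androgen-regulated, with earlier results of these data known, nothing is read from their higher medians. In the hexosamine list, next in line to UAP1 and GNPNAT1, 0 of 9 passed in LNCaP over all pairs (3 at an unadjusted p under 0.05) and 1 of 9 in VCaP. GFPT1, the enzyme that commits fructose-6-phosphate to the pathway, was at 0.27 in LNCaP (adjusted p = 0.202) and 0.36 in VCaP (adjusted p = 0.179). The entry that passed in VCaP was UAP1L1, a relative of UAP1 (0.32, adjusted p = 0.0196).

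In the list of N-glycan trimming, branching and quality control, 3 of 29 rose and 3 fell in LNCaP (20.7%), and 7 rose and 5 fell in VCaP (41.4%). Of all entries 18.4% and 29.5% passed. The lists were chosen with earlier results of these data known, so nothing is read from the shares of single lists. MANEA, an endomannosidase of the Golgi, fell by 1.33 in LNCaP (SE 0.09, limma adjusted p = 2.86e-06), as MAN1A1 did, and FUT8, the core fucosyltransferase, fell by 0.75 (SE 0.12, adjusted p = 0.000968). In the VCaP pairs the differences were -0.70 to -0.65 for MANEA and -0.46 to -0.27 for FUT8. A list gene is named under a comparison where its adjusted p was among the smallest, so the other line may respond alike. B4GALT1, a galactosyltransferase, rose by 1.17 in VCaP (SE 0.13, adjusted p = 8.85e-05), and MGAT5, which adds a branch, fell by 0.71 there (SE 0.09, adjusted p = 0.000249). In the list of dolichol-linked precursor and oligosaccharyltransferase genes 6 of 27 rose and 0 fell in LNCaP (22.2%), and 9 rose and 1 fell in VCaP (37%). DOLK, the dolichol kinase, rose by 0.29 in LNCaP (SE 0.05, adjusted p = 0.00267), and its VCaP pairs had 0.30 to 0.45.

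In the mucin O-glycan list 1 of 18 rose and 2 fell in LNCaP (16.7%), and 2 rose and 4 fell in VCaP (33.3%). GALNT3, a relative of GALNT7, fell by 0.64 in LNCaP (SE 0.09, limma adjusted p = 0.000438), in the direction opposite to GALNT7, and GCNT2, a branching enzyme, rose by 0.52 (SE 0.08, adjusted p = 0.00139). In the VCaP pairs the differences were -0.62 to -0.28 for GALNT3 and -0.25 to 0.06 for GCNT2. C1GALT1, the core 1 synthase, fell by 0.77 in VCaP (SE 0.10, adjusted p = 0.000198), and GALNT14 fell by 0.73 (SE 0.10, adjusted p = 0.000341). In the sialic acid list 4 of 15 rose and 3 fell in LNCaP (46.7%), and 4 rose and 4 fell in VCaP (53.3%). The shares of all entries were 18.4% and 29.5%. ST3GAL1, which sialylates core 1 chains, fell by 0.68 in LNCaP (SE 0.10, adjusted p = 0.000833), and its VCaP pairs had -0.16 to 0.24. In VCaP, GNE, which starts sialic acid synthesis, rose by 1.37 (SE 0.11, adjusted p = 1.35e-05), and ST6GALNAC5, a relative of ST6GALNAC1, fell by 1.64 (SE 0.18, adjusted p = 7.66e-05). With siControl in LNCaP, ST3GAL4, another sialyltransferase, rose by 0.75 (adjusted p = 0.026) and ST8SIA4, a polysialyltransferase, fell by 1.73 (adjusted p = 0.0241), the latter being below the signal filter over all 18 arrays.

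In the glycosaminoglycan list, to which CSGALNACT1 is close, 3 of 29 rose and 2 fell in LNCaP (17.2%), and 3 rose and 3 fell in VCaP (20.7%). The shares of all entries were 18.4% and 29.5%. EXTL2, a hexosaminyltransferase, rose by 0.87 in LNCaP (SE 0.09, limma adjusted p = 0.000101), and its VCaP pairs had -0.13 to 0.31. Among genes of sugar nucleotides and their Golgi transporters 7 of 22 rose and 0 fell in LNCaP (31.8%), and 8 rose and 2 fell in VCaP (45.5%). SLC35A2, the UDP-galactose transporter, rose by 0.37 in LNCaP (SE 0.06, adjusted p = 0.00125), and its VCaP pairs had 0.27 to 0.46. In VCaP, SLC35C1, a GDP-fucose transporter, rose by 0.82 (SE 0.13, adjusted p = 0.000717), and GMDS, which acts in GDP-fucose synthesis, by 0.65 (SE 0.11, adjusted p = 0.000983). PGM2, a phosphomutase, rose with siControl in LNCaP (0.80, adjusted p = 0.0305). MGAT4A, a branching enzyme of N-glycans, fell there (by 0.63, adjusted p = 0.0357).

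**Figure D4:**
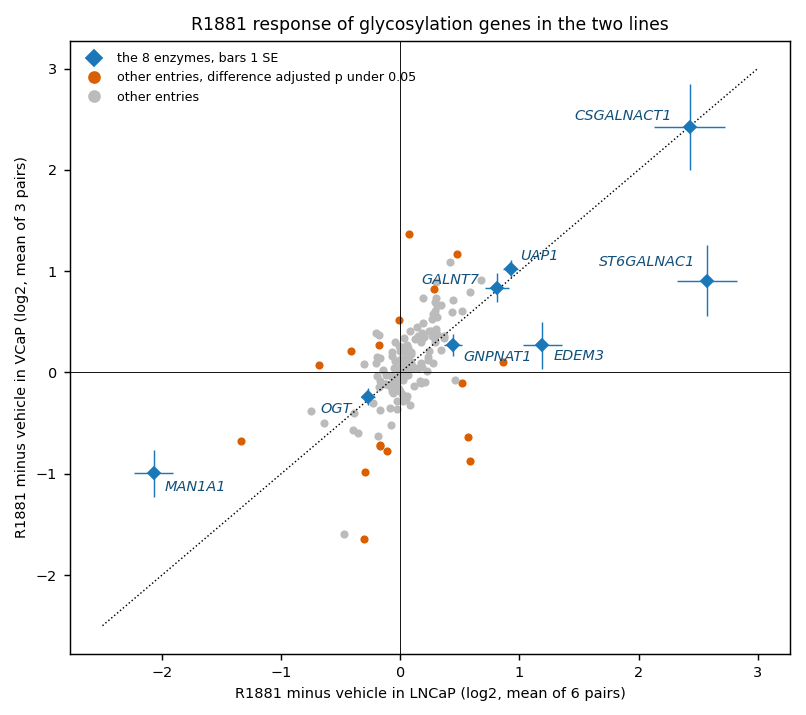
Mean R1881 response in LNCaP (x axis, 6 pairs, log2) against VCaP (y axis, 3 pairs, log2) for the 8 enzymes (blue, bars 1 standard error) and 149 other glycosylation entries, orange where the test of the difference between lines passed; the dotted line marks equal responses. UAP1, GALNT7 and OGT lie near the line, and ST6GALNAC1 (2.58 against 0.91) and MAN1A1 (-2.07 against -0.99) lie off it.

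With the knockdowns, 0 of the 149 list entries passed for siCTBP1-AS and 2 fell with siPSF. These were HS2ST1, a heparan sulfate sulfotransferase (log2 -0.87, SE 0.08, limma adjusted p = 0.000231), and GMDS (-0.58, SE 0.12, adjusted p = 0.0373). The share of 1.34% is near the 1.37% of all entries.

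The genes whose signals ran most alike to each enzyme were found by Pearson's r over the 18 arrays after centring each set, which leaves the differences between treatments and between siRNAs. For UAP1 they were SOCS2 (r = 0.982), PTPRM (0.967) and LPAR3 (0.963), and for ST6GALNAC1 SNAI2 (0.973), FBXW2 (0.972) and SMS (0.971). For CSGALNACT1 they were HMGXB3 (0.973), LIFR (0.971) and NCAPD3 (0.968), for GALNT7 TRIM3 (0.953), TIGD6 (0.951) and RNF185 (0.948), and for MAN1A1 GRB10 (0.948), SLC44A1 (0.94) and MINDY3 (0.936). GNPNAT1 was nearest to COG5 (0.932), NSMAF (0.916) and MPHOSPH9 (0.91), and EDEM3 to NSMAF (0.927), UBE2G1 (0.925) and NUP58 (0.921), with NSMAF in both. OGT was nearest to APPL1 (0.92), ASAP2 (0.914) and ANTXR1 (0.902). Among the enzymes themselves, r was 0.936 for UAP1 with CSGALNACT1, 0.898 for GNPNAT1 with EDEM3, 0.826 for OGT with MAN1A1 and -0.918 for ST6GALNAC1 with MAN1A1. Other pairs were weaker, down to -0.423 for GNPNAT1 with OGT and -0.395 for OGT with EDEM3. The enzymes were grouped as androgen-regulated, and centring by set keeps the R1881 difference, so nothing is read from these correlations among them.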

How the data were processed

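Total RNA of 18 samples was read on Affymetrix Human Gene 1.0 ST arrays. The authors deposited log2 signals, 1 for each transcript cluster. The submitters' processing notes name RMA and Affymetrix Expression Console 1.1.1. Not given in the sources used here are which arrays were normalized together and how long hormone was applied. The platform annotation gave 1 symbol to 19460 of the 33297 clusters and several to 1754, and it did not list 12083.

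Where clusters shared an annotation string, the one with the highest mean signal stood for it (19429 entries), and the lowest 25% were left out, leaving 14571 per fit. Probes can read near-identical relatives. Tests used limma 3.58.1 in R 4.3.3 (lmFit, eBayes, Benjamini-Hochberg adjustment, 0.05). They were also run on simulated data with independent noise on each array. That simulation cannot show whether pairs with different siRNAs and doses can stand as replicates. The R1881 response with siControl used 6 LNCaP arrays with the set as a block. Responses by line used all 18 arrays with the pair as a block, and knockdown effects all 18 with the set as a block. In the siControl LNCaP arrays the replicate number is the set. Deviations of the arrays from their group means had correlations of 0.78, 0.84 and 0.7 within a number and -0.64 to -0.077 between numbers. Taking deviations from group means makes the values between numbers negative on balance, and the sets differ in median signal. These values therefore do not show that the arrays of a number are paired cultures. The named genes are the members, SFPQ and CTBP1, and of the lists, for each comparison, the 4 entries with the smallest adjusted p in each direction among those past the threshold. CTBP1 itself was at log2 -0.05 with siCTBP1-AS (limma adjusted p = 0.853). For each member, 3 like entries were named by Pearson's r. Markers of basal, fibroblast, leukocyte and endothelial cells and of luminal prostate were looked up as a check.

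The alternatives were no filter, no replicate block, quantile normalization over all arrays, other tables of clusters, a robust variance model, fewer sets, and leaving out each set or pair. The members and lists were chosen with earlier results of these data known.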

Additional observations from a re-analysis of the deposited data

Results flagged for a closer look

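The R1881 responses of 10 named genes differed between the lines by the test of the difference (limma, VCaP minus LNCaP, all 18 arrays). In the glycosylation lists 8 of 149 entries were higher and 9 lower by this test (11.4%), near the 11.1% of all entries, and 8 of the 10 genes are the list entries named by the smallest adjusted p. For ST6GALNAC1 the difference was log2 -1.67 (adjusted p = 0.0307), from 2.58 in LNCaP and 0.91 in VCaP. MAN1A1 had a difference of 1.07 (adjusted p = 0.0334), from -2.07 and -0.99. Among other glycosylation genes, GNE differed by 1.29 (from 0.08 to 1.37, adjusted p = 0.000266) and B4GALT1 by 0.70 (from 0.48 to 1.17, adjusted p = 0.0169). GALNT2, a transferase that starts O-glycans, differed by 0.53 (from -0.01 to 0.52, adjusted p = 0.0138), and its relative GALNT10 by 0.63 (from -0.42 to 0.21, adjusted p = 0.0166). The response of ST6GALNAC5 differed by -1.34 (from -0.30 to -1.64, adjusted p = 0.00296) and that of PGM2 by -1.21 (from 0.57 to -0.64, adjusted p = 0.00436). C1GALT1 differed by -0.66 (from -0.11 to -0.77, adjusted p = 0.00506), and MGAT5 by -0.54 (from -0.17 to -0.71, adjusted p = 0.0111). Dose was 1 nM in VCaP and 1 or 10 nM in LNCaP, and its part in these differences was not tested.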

How the results depend on the processing

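The direction of the R1881 response of each of the 8 enzymes, in LNCaP and in VCaP, was the same under every alternative run. Of 672 values of single enzymes under the alternatives, 611 kept their direction and their side of the threshold, 26 lost and 5 gained a call, and 30 changed sign, all of the latter in uncalled values. Without the replicate block, which ignores the pairing of arrays within a set, the numbers of entries called were 38 for R1881 with siControl in LNCaP (732 with the block), 175 over all LNCaP pairs (2679), 105 in VCaP (4304) and 3 for the difference between lines (1623). They were 0 for siCTBP1-AS (74, with 482 at an unadjusted p under 0.05 in limma) and 2 for siPSF (200). The siCTBP1-AS count was 48 without the filter and 124 on the 12 LNCaP arrays, and the siPSF count was 52 on the sets that hold siPSF.

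Leaving out 1 set or pair at a time gave 189 to 1272 calls for siControl in LNCaP, 1172 to 2477 over all LNCaP pairs, 2139 to 3173 in VCaP and 1065 to 1538 for the difference between lines. It gave 0 to 124 for siCTBP1-AS, 1 to 186 for siPSF and 0 to 0 for both changes of the R1881 response. The lowest counts came without set 2 (189), set 3 (1172), the VCaP siControl pair (2139), set 1 (1065), set 2 (0) and VCaP (1). The cause was not tested.

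The values that changed sign were those of knockdown effects and of 2 line differences, and limma called none of them. Without the replicate block the siPSF effects were 0.36 (ST6GALNAC1), 0.025 (GNPNAT1), 0.094 (UAP1) and 0.19 (OGT). The siCTBP1-AS effect on MAN1A1 was -0.0017 after quantile normalization, -0.33 on the 12 LNCaP arrays and -0.019 on the sets that hold siCTBP1-AS, and that on GALNT7 was 0.11 on the 12 LNCaP arrays. On the sets that hold siPSF, its effects were 0.046 (ST6GALNAC1) and -0.071 (GALNT7), and its changes of the R1881 response -0.10 (GALNT7) and -0.070 (MAN1A1).

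Leaving out 1 set at a time gave line differences of -0.51 to 0.37 (CSGALNACT1) and -0.14 to 0.12 (GALNT7). It gave siCTBP1-AS effects of -0.58 to 0.27 (ST6GALNAC1), -0.29 to 0.11 (GALNT7) and -0.33 to 0.37 (MAN1A1), and siPSF effects of -0.15 to 0.090 (ST6GALNAC1), -0.36 to 0.33 (GALNT7) and -0.12 to 0.059 (OGT). Changes of the R1881 response with siPSF were -0.25 to 0.094 (EDEM3), -0.073 to 0.13 (GALNT7), -0.15 to 0.34 (GNPNAT1) and -0.30 to 0.023 (UAP1).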
